A study of Mus musculus with 16 samples.

Results

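The genes described here were 10 genes of selective autophagy, taken by gene symbol from the 23356 genes of each deposited table. They were the cargo receptors Sqstm1, Nbr1 and Optn, the ATG8 genes Map1lc3a, Map1lc3b, Gabarap, Gabarapl1 and Gabarapl2, the phosphoinositide-binding gene Wipi1 and the transcription factor gene Tfeb, and all 10 were present in all 16 libraries' tables. NIH3T3, a mouse fibroblast line, stably expressed DD-sfGFP, a destabilizing domain fused to superfolder GFP, in every group, and bortezomib, a proteasome inhibitor, was given to 3 of the 4 groups. RNA was sequenced from untreated control cells at 0 min and from cells exposed to bortezomib for 45, 135 or 405 min, with 4 libraries in each group. The study kept Shield-1, the ligand that holds the domain folded, in the medium of this line except where the unfolded domain was to be made, and does not repeat this for bortezomib. The cells had been sorted for high GFP fluorescence per the study's methods, so the groups describe 1 sorted line, and the labels give neither a bortezomib dose nor whether the replicates were separate cultures. The p-values therefore measure only the spread between these libraries, and no vehicle-treated cells at 45, 135 or 405 min were analysed here, so that drug and elapsed time cannot be told apart.

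In selective autophagy, receptor proteins bind ubiquitylated cargo on one side and lipid-anchored ATG8 proteins on the growing autophagosome membrane on the other, and the closed vesicle then fuses with a lysosome, where the cargo is degraded. Sqstm1 encodes p62, a receptor that gathers ubiquitylated proteins into bodies and is itself degraded with them, and which also binds Keap1, the inhibitor of the transcription factor Nrf2. When the proteasome is blocked, ubiquitylated proteins accumulate, and this pathway is known as another route for their removal.

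The libraries did not share one composition, and this bears on every comparison below. Ribosomal protein genes held 4.25% to 9.42% of the fragments in 7 libraries, namely replicates 1 and 2 at 45 min, the same numbers at 135 min, and replicates 1, 3 and 4 at 405 min. In the other 9 libraries, all 4 controls included, they held 0.398% to 1.21%. The 7 libraries had 1385229 to 19930375 fragments and the 9 libraries 570323 to 1469951. Because no control library had a ribosomal protein share over 4%, that difference in composition and the treatment cannot be told apart in a comparison with control that uses the 7 libraries. The 8 fibroblast markers looked at, among them Col1a2, Vim and Fn1, summed to 5688 to 37174 CPM (counts per 1000000) in the 7 libraries and to 347 to 2191 CPM in the 9. The 4 epithelial markers, among them Epcam and Cdh1, summed to 0 to 133 CPM in the 7 libraries and to 122 to 248 CPM in the 9, where 3 leukocyte markers summed to 62.2 to 145 CPM, 3 endothelial markers to 152 to 366 CPM and 3 neuronal markers to 126 to 227 CPM. Olfactory and vomeronasal receptor genes (1445 symbols starting with Olfr or Vmn) serve smell and were taken here as not transcribed in fibroblasts. They had a share of 4.16% to 5.13% in the 9 libraries and of 0.00556% to 2.62% in the 7. The 2.62% belonged to 405 min replicate 3, which of the 7 also had the lowest ribosomal protein share and the fewest fragments. The summed markers of unrelated cell types thus lay higher in the 9 libraries, with some overlap for the epithelial sum, and the fibroblast sum lay higher in the 7, and the part of this in the results was not tested. Since the study describes 1 sorted fibroblast line, these sums are given as a description of the libraries and not of numbers of cells. CPM values here are fragments per 1000000 fragments of the 5030 genes with at least 1 fragment in every library, after TMM scaling.

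Low counts limited several members. Of the 160 member values (10 genes in 16 libraries), 14 were 0 and 19 more were of 10 fragments or fewer. The zeros fell in 6 libraries and on 8 genes, and 6 of them fell in control replicate 4. They did not follow depth alone. Control replicate 4 had 864864 fragments, with 27.7% of all genes at 0. Control replicate 2 had 861482 fragments, 8.84% of all genes at 0 and no member at 0. A count of 0 allows up to 3 fragments, which was 1.96 to 6.91 CPM in the libraries concerned, counting error only. Only Sqstm1 and Map1lc3b had at least 1 fragment in every library, so the other 8 members did not enter the fit across all libraries.

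Sqstm1 (mm9 chr11:50012868-50024329, minus strand, 8 exons after merging transcripts) was the member with the highest value in any library. In control it had 83.6, 36.8, 31.3 and 60.0 CPM in replicates 1 to 4. It had 485, 159, 17.3 and 113 CPM at 45 min and 302, 336, 13.8 and 39.1 CPM at 135 min. At 405 min it had 8623, 63.9, 128 and 2458 CPM. Replicates 1 and 4 at 405 min stood above all other libraries of the series, while replicates 2 and 3 at the same time did not, and replicate 2 lay inside the range of the controls. The underlying counts were 20 to 52 fragments in the controls against 75800 and 22685 fragments in 405 min replicates 1 and 4, and 35 and 105 fragments in replicates 2 and 3. At 45 and 135 min the higher pair of libraries was replicates 1 and 2 each time, which are also the libraries with a ribosomal protein share over 4%. Over all times, each library with a share over 4% lay above each of the others, at 128 to 8623 CPM against 13.8 to 113 CPM.

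The promoter windows of Sqstm1 and of the ATG8 gene Gabarapl1 are shown because these were the members with an unadjusted p under 0.05 between 135 and 405 min, described further on. They are the 250 bases before the annotated start in RefSeq, on the strand of the gene, with matches to the motifs searched in capitals. The Sqstm1 window is GRCm38.p6 chr11:50210821-50211070 on the minus strand, and the Gabarapl1 window is chr6:129532942-129533191 on the plus strand.
Sqstm1: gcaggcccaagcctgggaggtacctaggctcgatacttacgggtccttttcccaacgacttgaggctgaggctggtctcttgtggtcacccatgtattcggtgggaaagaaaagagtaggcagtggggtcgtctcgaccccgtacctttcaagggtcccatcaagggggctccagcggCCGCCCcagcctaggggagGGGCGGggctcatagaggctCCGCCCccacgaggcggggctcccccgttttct
Gabarapl1: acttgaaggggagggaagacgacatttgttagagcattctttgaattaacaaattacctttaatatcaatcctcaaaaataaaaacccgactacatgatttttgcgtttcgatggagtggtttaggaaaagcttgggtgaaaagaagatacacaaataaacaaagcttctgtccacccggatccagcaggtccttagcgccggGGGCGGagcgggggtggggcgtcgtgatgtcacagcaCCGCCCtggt

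Both strands were searched for the GC box core GGGCGG, the E-box CACGTG, the antioxidant response element core TGACNNNGC, the heat shock element pair GAANNTTC and the TATA box TATAAA. The capitals are matches to the GC box core on either strand, 3 in the Sqstm1 window and 2 in the Gabarapl1 window, and no match overlapped a match to another motif. Of 32851 windows of this length in the RefSeq table, 32.7% held a GC box core, 6.02% an E-box, 10.2% the antioxidant response element core, 6.69% the heat shock element pair and 12.4% a TATA box. The table gave 12 windows for 9 members, with none for Map1lc3a, and 9 of them, from 7 genes, held a GC box core. None of these 12 windows held the letters of the other 4 motifs, which says only that the letters are not in these windows.

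The other receptors had lower ceilings. Nbr1 (chr11:101413463-101443265, plus strand), a receptor that binds ubiquitin and ATG8 proteins and acts together with p62, had 37.0, 80.2, 92.3 and 0 CPM in control and 244, 179, 80.7 and 86.7 CPM at 45 min. It had 60.2, 126, 64.5 and 69.7 CPM at 135 min and 242, 78.5, 143 and 235 CPM at 405 min. The 405 min values overlapped those of the controls, and the 0 in control replicate 4 stood far from the other 3 controls. Optn (chr2:4941688-4985097, minus strand), which encodes optineurin, a receptor for damaged mitochondria and bacteria, had 38.6, 46.8, 17.2 and 0 CPM in control and 43.0, 20.1, 18.4 and 101 CPM at 405 min. Its values overlapped between control and each later time, with 17.3 to 43.1 CPM at 45 min and 0 to 66.8 CPM at 135 min.

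Among the ATG8 genes, which encode the small ubiquitin-like proteins that are attached to the autophagosome membrane, Map1lc3b (chr8:124114368-124121947, plus strand) was the one with no value of 0. This gene encodes LC3B, the usual marker protein of autophagosomes. It had 69.2, 65.2, 32.8 and 46.7 CPM in control, 271, 453, 74.0 and 20.0 CPM at 45 min, 381, 161, 13.8 and 10.2 CPM at 135 min, and 173, 60.2, 144 and 239 CPM at 405 min. Each of the 7 libraries with a ribosomal protein share over 4% lay above each of the 9 others, at 144 to 453 CPM against 10.2 to 74.0 CPM. Sqstm1 was placed in the same way. The share of all genes so placed is not given, so no result about the members is drawn from this. Among the libraries of 4% or less, both 135 min libraries lay below all 4 controls, on 6 fragments each.

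Gabarap (chr11:69804645-69808453, plus strand), the founding member of the other ATG8 subfamily, had 12.9, 60.2, 53.2 and 0 CPM in control and 355, 29.2, 20.8 and 147 CPM at 405 min. It had 297 CPM in 45 min replicate 1 and 26.7 to 52.6 CPM in the other 45 min libraries, and 0 to 76.6 CPM at 135 min. At 45 min a single library, replicate 1, thus lay above all controls, and at 405 min replicates 1 and 4 did. Gabarapl1 (chr6:129483218-129492349, plus strand), a close relative of Gabarap, had 0, 51.8, 48.5 and 60.0 CPM in control and 51.0, 23.2, 58.6 and 40.0 CPM at 45 min. It had 0.654, 28.0, 27.7 and 96.9 CPM at 135 min and 306, 23.7, 55.1 and 73.6 CPM at 405 min. In 135 min replicate 1 the value rested on 1 fragment among all 3154062, and in 405 min replicate 1, the highest, on 2694 fragments.

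Gabarapl2 (chr8:114464603-114477512, plus strand), which encodes the ATG8 protein also known as GATE-16, had 0 to 50.0 CPM in control, 13.5 to 93.3 CPM at 45 min, 0 to 128 CPM at 135 min and 25.7 to 49.2 CPM at 405 min. Map1lc3a (chr2:155102033-155103809, plus strand), which encodes LC3A, had 0 to 30.6 CPM in control, 12.0 to 61.1 CPM at 45 min, 0 to 48.4 CPM at 135 min and 12.2 to 60.6 CPM at 405 min. Neither gene had a time at which its values cleared those of the controls. The whole of Map1lc3a (1777 bases) lies inside Pigu on the opposite strand in the mm9 annotation, and 750 bases of Sqstm1 overlap 3010026O09Rik on the opposite strand. Optn overlaps 4930551O13Rik (3854 bases) and Gabarapl1 overlaps 1700101I11Rik (73 bases), also on the opposite strand. All 7580 bases of Map1lc3b overlap the protein-coding gene Gm20388 on the same strand, which counting by strand would not resolve. Whether fragments were counted by strand was not given in the sources used here, so fragments of these overlapping parts cannot be assigned with certainty.

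Wipi1 (chr11:109434645-109473281, minus strand) encodes a protein that binds phosphatidylinositol 3-phosphate on the forming autophagosome. It had 11.3, 16.7, 23.5 and 25.0 CPM in control, 67.7, 44.1, 44.2 and 0 CPM at 45 min, 3.93, 41.5, 136 and 3.40 CPM at 135 min, and 20.1, 1.83, 8.57 and 42.3 CPM at 405 min. At 45 min 3 of 4 libraries lay above all controls and the fourth was at 0, while the 135 min libraries lay on both sides of the controls. Tfeb (chr17:47873979-47929368, plus strand, named Tcfeb in that annotation) encodes a transcription factor that switches on autophagy and lysosome genes. It had 30.6, 41.8, 45.3 and 0 CPM in control, 1.46, 8.54, 68.2 and 66.7 CPM at 45 min, 0, 15.2, 0 and 37.4 CPM at 135 min, and 8.99, 36.5, 23.2 and 1.30 CPM at 405 min. Its median was 8.54 CPM in the 7 libraries with the higher ribosomal protein share and 37.4 CPM in the 9 others, the opposite order to Sqstm1 (336 and 39.1 CPM).

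**Figure D1:**
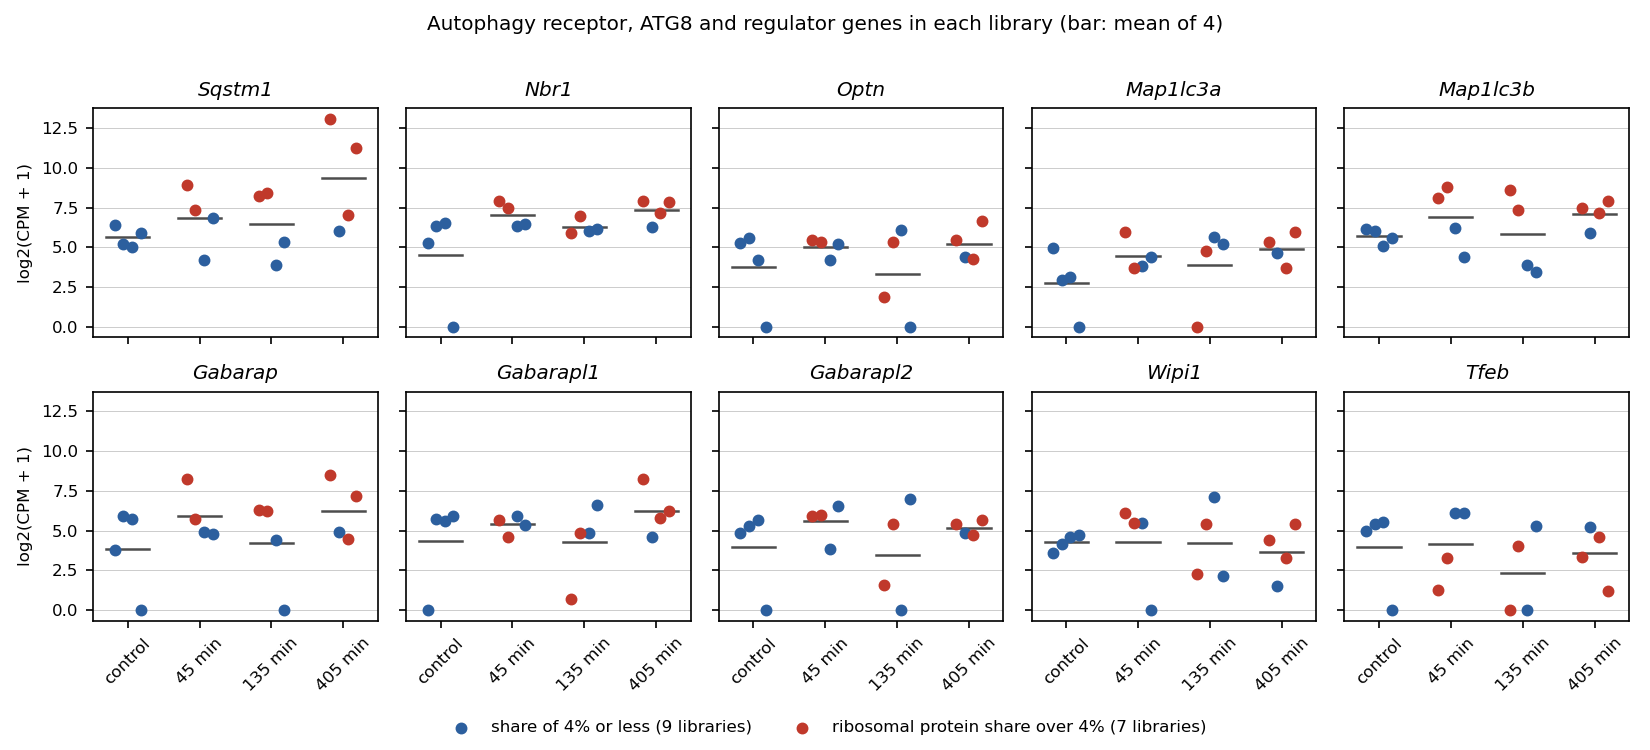
Level of each of the 10 genes in each of the 16 libraries, as log2(CPM + 1) on the vertical axis, by group on the horizontal axis, with the replicates from left to right and a bar at the mean of 4. Points are coloured by ribosomal protein share, and Sqstm1 in 405 min replicates 1 and 4 (8623 and 2458 CPM) stands above all other points.

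The first question was whether the members differed from control at each time. In the fit of all 16 libraries, 0 of 2 tested members had a Benjamini-Hochberg adjusted p under 0.05 by edgeR's quasi-likelihood test at 45, 135 or 405 min, and 0% of the 5030 tested genes did so at any of these times. Sqstm1 at 405 min was the only one of these 6 results with an unadjusted p under 0.05, where 14.5% of all tested genes were higher and 1.51% lower with such a p. At 45 min 12.1% were higher and 0.775% lower, and at 135 min 7.83% and 1.35%, with 0 members among them. DESeq2 called 1 of the 2 members at 405 min and edgeR's exact test 1 as well, Sqstm1 both times, and neither called a member at 45 or 135 min. At an unadjusted p under 0.05, DESeq2 and the exact test each had 1 member at 45 min and 0 at 135 min. The share of all genes with such a p is not given for these methods, so no result about the members is drawn from these counts.

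Sqstm1 averaged 5.65 ± 0.64 log2(CPM + 1) over the controls (SD, n = 4) and 9.34 ± 3.37 over the 405 min libraries (SD, n = 4). Its fitted log2 fold change at 405 min was 5.73 (SE 1.58, 95% interval 2.41 to 9.06, edgeR quasi-likelihood adjusted p = 0.285, unadjusted p = 0.00193). At 45 min the log2 fold change was 1.88 (SE 1.34) and at 135 min 1.71 (SE 1.33), with edgeR quasi-likelihood adjusted p-values of 0.563 and 0.644. Both intervals included 0. The median log2 fold change of all 5030 genes was 0.11 to 0.16 at the 3 times.

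The value at 405 min changed with the fit and with the libraries used. All 4 controls had a ribosomal protein share under 4%, so a fit with this share as covariate cannot fully separate composition from treatment. With the log2 ribosomal protein share as a covariate the log2 fold change of Sqstm1 at 405 min became 2.81 (SE 1.26), beside 0.05 for the 45 min and -0.57 for the 135 min libraries. Among libraries with a share of 4% or less it was 0.30 (SE 0.79) at 45 min and -1.06 (SE 0.85) at 135 min, with 4 controls and 2 libraries at each time, so the sign at 135 min was the opposite of that in all libraries. The single 405 min library in this class, replicate 2, had 63.9 CPM against 31.3 to 83.6 CPM in the controls. Without 405 min replicate 1 the log2 fold change at 405 min was 4.06. Counted per 1000 ribosomal protein fragments of the same library, a scaling added after the data had been seen, Sqstm1 had 10.9, 2.11, 5.08 and 10.5 in control and 73.5, 5.01, 1.78 and 13.3 at 405 min. On that scale the median at 405 min was 1.18 times that in control, against 26.7 times in CPM, and the medians at 45 and 135 min were 0.389 and 0.346 times that in control. The divisor itself held 0.398% to 1.21% of the fragments in the controls and 4.25% to 8.59% in 405 min replicates 1, 3 and 4. This alone lowers the ratios to control, so they show neither a fall nor an unchanged level of Sqstm1.

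Map1lc3b averaged 5.71 ± 0.49 log2(CPM + 1) over the controls (SD, n = 4), and 6.88 ± 1.99, 5.82 ± 2.52 and 7.12 ± 0.84 over the libraries of the successive times (SD, n = 4). Its log2 fold changes against control were 1.94 (SE 0.98), 1.42 (SE 0.97) and 1.53 (SE 0.97), with edgeR quasi-likelihood adjusted p-values of 0.402, 0.594 and 0.413. With the ribosomal protein share as a covariate they were -0.04, -1.04 and -0.77, and among the libraries of 4% or less -0.12 (SE 0.71) at 45 min and -2.23 (SE 0.84) at 135 min. The sign of each difference from control therefore turned with this choice. The value of -2.23 had an edgeR quasi-likelihood adjusted p of 0.394 and rested on 6 fragments in each 135 min library of that class.

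**Figure D2:**
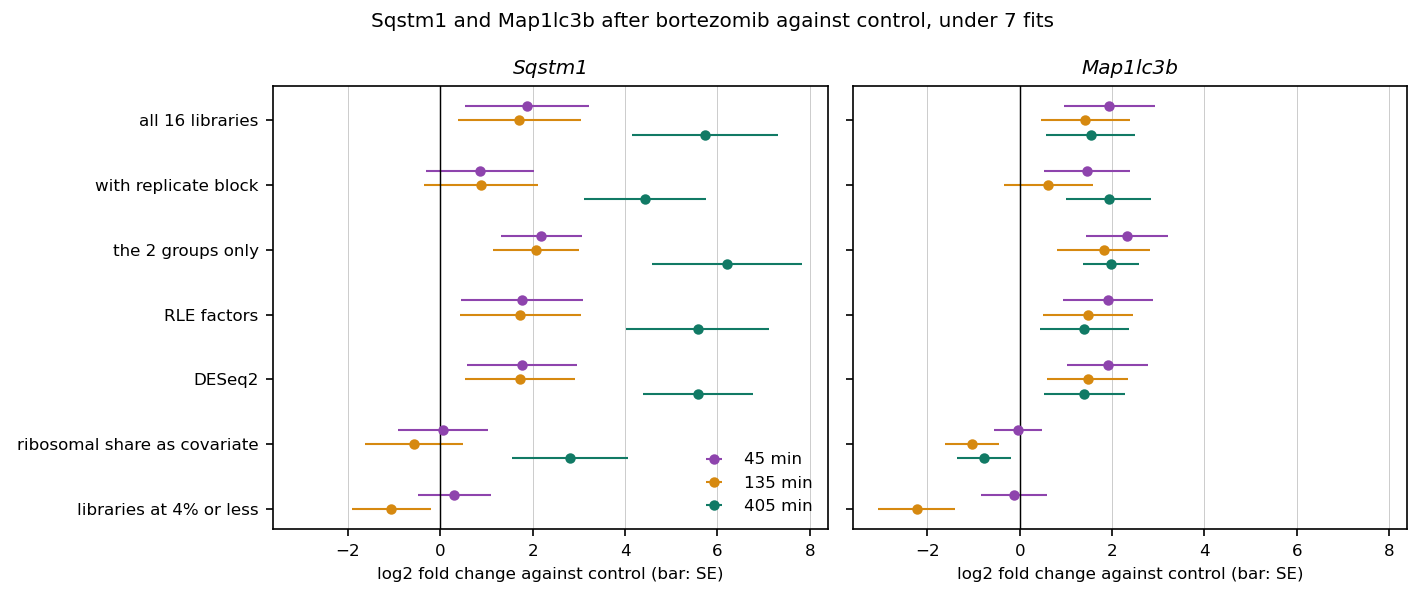
Log2 fold change against control (horizontal axis) of Sqstm1 (left) and Map1lc3b (right) under the 7 fits named on the vertical axis, with a colour for each of 45, 135 and 405 min and bars of 1 SE either side. Sqstm1 at 405 min goes from 5.73 in all 16 libraries to 2.81 with the ribosomal protein share as a covariate, and Map1lc3b lies on both sides of 0.

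The 8 members that the filter removed were compared with control on group means of log2(CPM + 1), 4 libraries against 4, in 24 exact permutation tests (2-sided). Of these 24 tests 0 gave p under 0.05, where the smallest p that 70 splits allow is 0.0286, and no p-value was adjusted. The smallest p found was 0.0857 (exact permutation test), for Nbr1 at 405 min, with 7.32 ± 0.76 against 4.53 ± 3.08 in control (SD, n = 4 each, difference 2.79), and for Map1lc3a at 405 min, with 4.91 ± 0.96 against 2.77 ± 2.06 (difference 2.15). Control replicate 4, which was at 0 for 6 of the 8 genes, decided these sizes. Without it the differences were 1.28 for Nbr1 and 1.23 for Map1lc3a. For Gabarap the difference at 405 min was 2.39 with all libraries and 1.10 without control replicate 4. For Gabarapl1, which was at 0 in control replicate 1 instead, it was 1.91, and 0.47 without that library. Optn, Gabarapl2, Wipi1 and Tfeb had differences at 405 min of 1.43, 1.21, -0.62 and -0.40, with exact permutation p-values of 0.371 to 0.771, and without control replicate 4 they were 0.18, -0.10, -0.48 and -1.72. With each library left out in turn, an alternative added after the data had been seen, 4 of 192 such tests gave p = 0.0286, the smallest that 35 splits of 3 against 4 allow (exact permutation test). These were Map1lc3a at 45 and 405 min without control replicate 1 (differences 2.45 and 2.89), Nbr1 at 45 min without control replicate 3 (3.20) and Wipi1 at 45 min without 45 min replicate 4 (1.43), and the first 3 kept control replicate 4 at 0. With no filter on low counts, a fit that tests all 10 members among 22359 genes, 0 members passed an edgeR quasi-likelihood adjusted p under 0.05, and 0.00447% of the genes did so at 405 min. At 405 min 4 of the 10 had an unadjusted p under 0.05, all higher, namely Sqstm1, Nbr1 (2.62, SE 1.07), Gabarap (3.34, SE 1.45) and Gabarapl1 (2.79, SE 1.24), where 8.87% of all genes were higher and 0.358% lower with such a p.

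The course over time was then read in the 7 libraries with a ribosomal protein share over 4%. These were 2 libraries at 45 min, 2 at 135 min and 3 at 405 min, with 4 residual degrees of freedom and no control. The share just above 4% was 4.25%, in 405 min replicate 3, and the share just below was 1.21%, in control replicate 2. In these libraries 8605 genes had at least 1 fragment in each, and 8 members were among them. Map1lc3a and Tfeb were at 0 in 135 min replicate 1 and were not tested.

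Of the 8 tested members 0 had an edgeR quasi-likelihood adjusted p under 0.05 between 45 and 135 min, 135 and 405 min, or 45 and 405 min, as did 0% of the 8605 genes. At an unadjusted p under 0.05 there were 0, 2 and 1 members in these comparisons, and all of these were higher at 405 min. Of all 8605 genes 1.28% were higher and 0.36% lower with such a p from 45 to 135 min, 1.46% and 1.86% from 135 to 405 min, and 3.01% and 4.15% from 45 to 405 min. DESeq2 and edgeR's exact test called 0 members in each of the 3 comparisons too. At an unadjusted p under 0.05 there were 0, 2 and 2 members for DESeq2 and 0, 2 and 1 for the exact test. The share of all genes with such a p is not given for these methods, so these counts are not read further.

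In these libraries Sqstm1 had 485 and 159 CPM at 45 min, 302 and 336 CPM at 135 min, and 8623, 128 and 2458 CPM at 405 min. The 405 min libraries thus lay on both sides of the earlier ones, with replicate 3, the library of the 7 with the highest receptor gene share, below all 4 and the other 2 above all 4. The part of that library's composition in its value was not tested. The log2 fold change was 0.03 (SE 1.34) from 45 to 135 min, 3.59 (SE 1.44, 95% interval 0.40 to 6.77) from 135 to 405 min and 3.62 (SE 1.44, 95% interval 0.43 to 6.81) from 45 to 405 min. The unadjusted p-values of the last 2 were 0.0308 and 0.0298 and the edgeR quasi-likelihood adjusted p-values 0.909 and 0.690. Without 405 min replicate 1 these log2 fold changes were 2.03 and 2.06, and without 405 min replicate 3 they were 4.15 and 4.18. DESeq2 gave 3.65 from 45 to 405 min with an adjusted p of 0.0526, where the adjusted p ranged from 0.0526 to 1 over 7 such alternatives.

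Gabarapl1 had 51.0 and 23.2 CPM at 45 min, 0.654 and 28.0 CPM at 135 min, and 306, 55.1 and 73.6 CPM at 405 min. All 3 libraries at 405 min were higher than the 4 earlier ones. Its log2 fold change was -1.24 (SE 1.26) from 45 to 135 min, 3.31 (SE 1.30, unadjusted p = 0.0282, edgeR quasi-likelihood adjusted p = 0.909) from 135 to 405 min and 2.07 (SE 1.21) from 45 to 405 min. The second value was 2.34 (SE 1.23, unadjusted p = 0.0835) without 135 min replicate 1, the library with 1 fragment, and 2.14 without 405 min replicate 1. It was 7.85 without 135 min replicate 2, which leaves replicate 1 alone at its time and assumes that it varies like the other groups. The change from 45 to 405 min was 0.89 without 405 min replicate 1.

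The remaining members had smaller differences relative to their errors. Nbr1 had 244 and 179 CPM at 45 min, 60.2 and 126 CPM at 135 min, and 242, 143 and 235 CPM at 405 min. Both 135 min libraries were the lowest, and its log2 fold change was -1.11 (SE 0.65) from 45 to 135 min, 1.18 (SE 0.61) from 135 to 405 min and 0.07 (SE 0.58) from 45 to 405 min. Map1lc3b had log2 fold changes of -0.37, -0.48 and -0.85 (SE 0.58 to 0.65), and all 3 libraries at 405 min were below both at 45 min. Optn had -0.83, 1.31 and 0.48, Gabarap -1.16, 1.24 and 0.08, Gabarapl2 -1.36, 0.83 and -0.53, and Wipi1 -1.19, 0.05 and -1.13 (SE 0.99 to 1.16). The interval of each of these included 0.

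The sign of several of these differences turned when 1 library was left out. Gabarap from 45 to 135 min was 0.58 without 45 min replicate 1, and from 45 to 405 min it was -0.62 without 45 min replicate 2 and -0.98 without 405 min replicate 1. Map1lc3b from 45 to 135 min was 0.03 without 45 min replicate 2 and 0.08 without 135 min replicate 2, and from 135 to 405 min 0.15 without 135 min replicate 1. Optn from 45 to 405 min was -0.32 without 405 min replicate 4. The values of Sqstm1 from 45 to 135 min, Nbr1 from 45 to 405 min and Wipi1 from 135 to 405 min lay so near 0 that leaving out any of several libraries turned them, with -0.52 for Sqstm1 without 45 min replicate 2 the farthest of the first.

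From 45 to 135 min 7 of the 8 log2 fold changes were negative, with a median of -1.13 where the median of all 8605 genes was -0.07. From 135 to 405 min 7 of the 8 were positive, with a median of 1.21 against 0.16 for all genes, and from 45 to 405 min 5 were positive, with a median of 0.08 against 0.14. In 135 min replicate 1, 49.5% of all genes were at 0, the highest share in the series, at a depth of 3154062 fragments. Optn, Gabarapl1, Gabarapl2 and Wipi1 had 4, 1, 3 and 6 fragments there, against 122, 85, 126 and 126 in 135 min replicate 2. Without 135 min replicate 1 the log2 fold changes from 45 to 135 min were 0.08, -0.28, -0.43 and -0.30 for these 4 genes, and those from 135 to 405 min were 0.38, 2.34, -0.13 and -0.84, so that Gabarapl2 and Wipi1 took the opposite sign there and Optn and Gabarapl1 kept theirs.

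**Figure D3:**
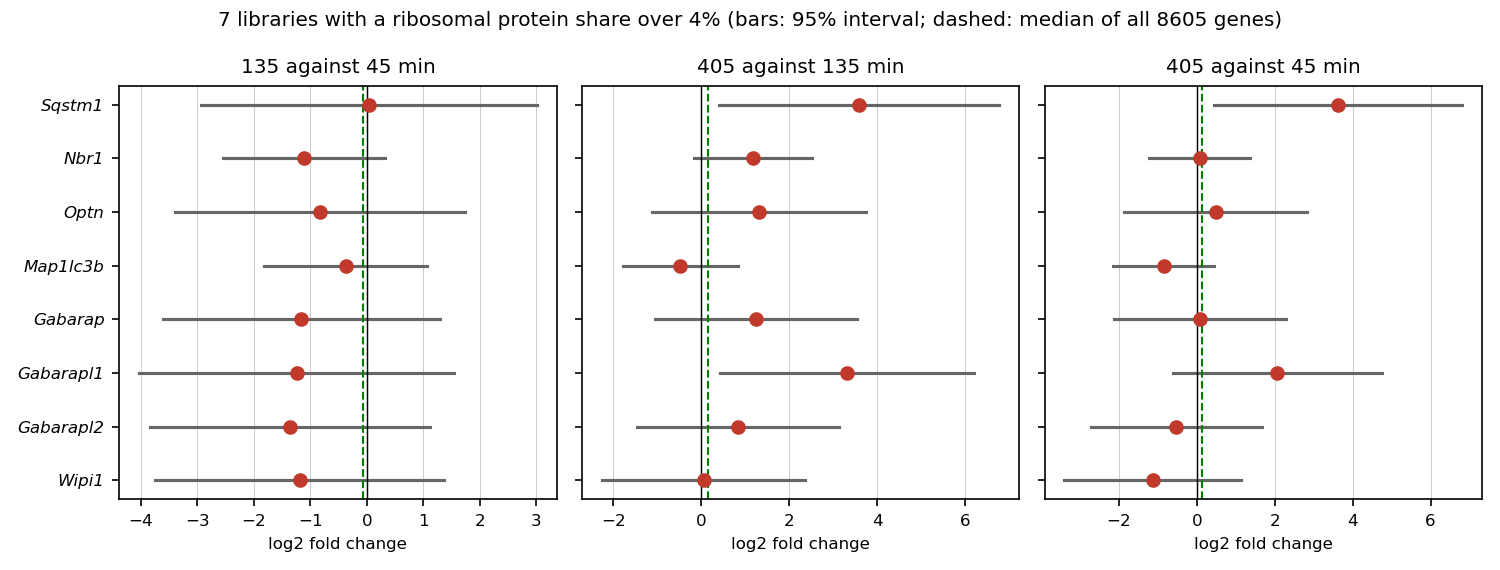
Log2 fold change (horizontal axis) of the 8 tested genes (vertical axis) between the times, in the 7 libraries with a ribosomal protein share over 4%, with bars for the 95% interval and a dashed line at the median of all 8605 genes. The intervals of Sqstm1 and Gabarapl1 from 135 to 405 min and of Sqstm1 from 45 to 405 min lie above 0, and the other 21 intervals include 0.

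The ranges can be read without a fit. Both 135 min libraries were lower than both 45 min libraries for Nbr1, Gabarapl2 and Wipi1, 3 of the 8 tested members, where 20.4% of the 8605 genes were so placed, and higher for 0 members, against 15.5%. All 3 libraries at 405 min were higher than both at 135 min for Nbr1 and Gabarapl1, against 7.65% of all genes, and lower for 0, against 7.32%. They were higher than both at 45 min for Gabarapl1 alone, against 8.67% of all genes, and lower for Map1lc3b, Gabarapl2 and Wipi1, against 16.9%. Sqstm1 was in none of these sets, because 405 min replicate 3 held 128 CPM, while replicates 1 and 4 held more than every 45 and 135 min library. In the comparisons of all 4 libraries with the 4 controls, 0 of the 10 members had groups that did not overlap. For all genes tested, 1.45%, 3.02% and 7.48% lay above the controls at the successive times, and 2.68%, 3.4% and 5.69% below. Within the libraries of a share of 4% or less, both 45 min libraries were above the 4 controls for Tfeb and below for 0 members, where 6.83% and 7.72% of the 8366 genes detected in all 9 were so placed. Both 135 min libraries were above for Map1lc3a and below for Map1lc3b, against 13.1% and 9.38%. Tfeb and Map1lc3a were at 0 in control replicate 4, so they are not among the 8366 genes and those shares are no background for them.

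Levels of different members were compared only per transcript length, with the FPKM values the authors deposited. In the 7 libraries with the higher ribosomal protein share the order of the medians was Sqstm1 (155 FPKM), Map1lc3b (89.2), Gabarap (76.8), Gabarapl2 (32.1), Nbr1 (23.8), Map1lc3a (18.3), Gabarapl1 (18.0), Wipi1 (14.7), Optn (7.37) and Tfeb (1.40 FPKM). In the 9 others the medians lay closer together, from 21.4 FPKM for Gabarapl2 to 5.46 FPKM for Optn, with Sqstm1 at 12.8 FPKM in sixth place. The ranges of neighbours in the order overlapped for 9 of 9 pairs in each class. Sqstm1 exceeded Map1lc3b in 4 of the 7 libraries, and Optn exceeded Tfeb in 6 of the 7. How the authors' counting treated fragments that match processed copies of the ATG8 genes elsewhere in the genome was not given in the sources used here, so the split of such fragments is uncertain.

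**Figure D4:**
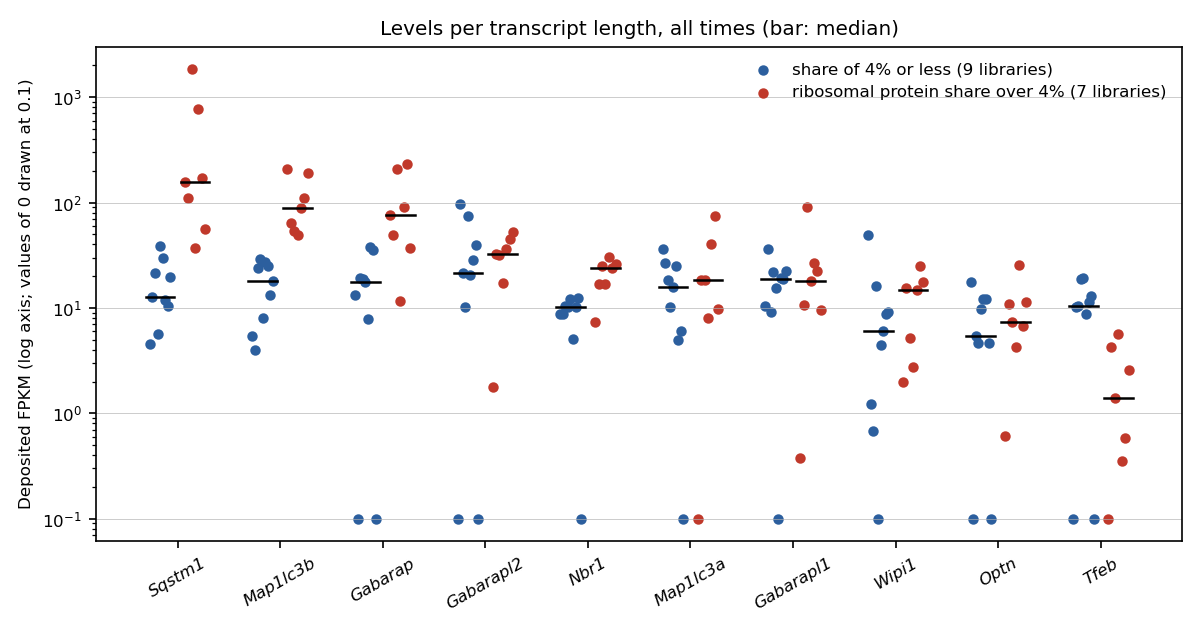
Deposited FPKM (vertical axis, log scale, with values of 0 drawn at 0.1) of the 10 genes (horizontal axis) in the 7 libraries with a ribosomal protein share over 4% and the 9 others, with bars at the medians. Sqstm1 has a median of 155 FPKM in the 7 libraries and 12.8 FPKM in the 9, and Tfeb 1.40 and 10.4 FPKM.

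Within a library the ratio of 2 members does not depend on the total used for scaling. Sqstm1 had 0.367, 0.102, 0.0936 and 0.482 times the summed FPKM of the 5 ATG8 genes in control, 0.351, 0.189, 0.063 and 0.294 times at 45 min, and 0.544, 0.639, 0.069 and 0.0778 times at 135 min. At 405 min the ratio was 4.56, 0.232, 0.353 and 2.72. Only 405 min replicates 1 and 4 had more Sqstm1 than all ATG8 genes together, and the other 2 libraries at 405 min lay within the range of the controls. By deposited FPKM, Sqstm1 was in place 44 and 166 among 23356 genes in those libraries, in place 1874 and 1320 in 405 min replicates 2 and 3, and in places 1273 to 10397 in the controls.

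**Figure D5:**
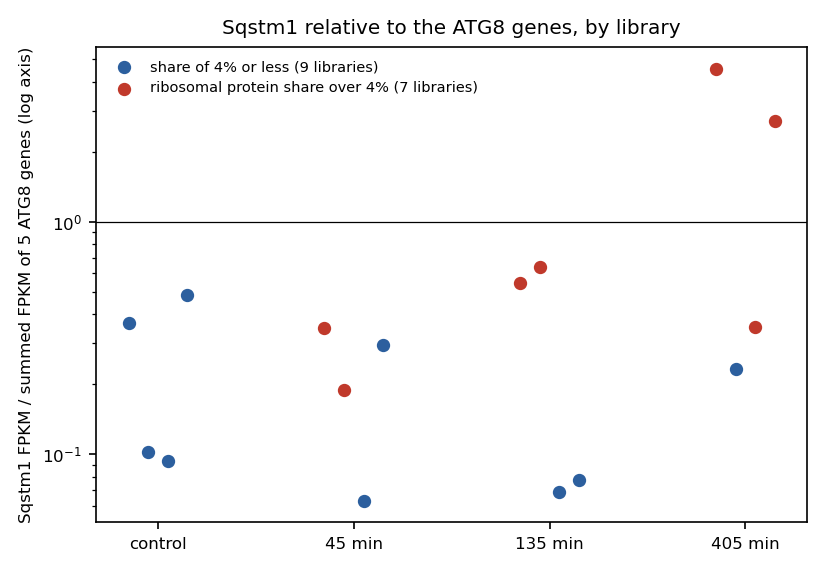
Sqstm1 FPKM divided by the summed FPKM of the 5 ATG8 genes (vertical axis, log scale) in each library, by group. The line marks equal levels, which only 405 min replicates 1 and 4 (4.56 and 2.72) exceed.

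Likeness to Sqstm1 was measured as Pearson's r of log2(CPM + 1) over libraries, as a description. Over all 16 libraries the 5 tested genes most like it were Larp1, Stip1, Tubb5, Dst and Ptgs2, with r from 0.918 to 0.934, and Map1lc3b had r = 0.644. Over the 7 libraries the 5 were Hspb8, Gpt2, Csf1, Npc1 and Ywhag, with r from 0.98 to 0.991. Among the members Gabarap was nearest there with r = 0.798, followed by Gabarapl1 (0.599), Nbr1 (0.514), Optn (0.435), Gabarapl2 (0.216), Wipi1 (0.183) and Map1lc3b (-0.26). The points share the 2 deepest 405 min libraries at their upper end. Hspb8, a small heat shock protein gene whose product works with Bag3, had 397 and 179 CPM in 405 min replicates 1 and 4 and 45.3 to 69.9 CPM in the other 5 of these libraries.

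Other genes of the pathway were read from fixed lists. Of 26 genes of the core autophagy machinery 16 were tested against control, of 13 further receptor genes 5, of 6 regulators 3 and of 14 lysosome genes 7, and 0 in each list had an edgeR quasi-likelihood adjusted p under 0.05 at any time. At 405 min 2, 1, 0 and 3 of these genes were higher at an unadjusted p under 0.05 and 0 lower. The lysosome genes had the highest medians, 2.75, 2.52 and 2.86 on the log2 scale at 45, 135 and 405 min against 0.14, 0.16 and 0.11 for all genes, and the 6 tested fibroblast markers, whose levels by library class are given above, had 3.92, 3.24 and 3.32. The core machinery had medians of -0.46, -0.31 and -0.08. Within the 7 libraries the lysosome genes had medians of -0.44, 0.50 and 0.23 for 45 to 135, 135 to 405 and 45 to 405 min, with 10 genes tested, and the core machinery 0.06, 0.39 and 0.42 with 22.

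Of each list the 3 genes with the highest mean CPM were looked at. Tax1bp1, a receptor related to the NDP52 family, had a log2 fold change of 2.87 (SE 1.08) at 405 min against control, and 0.10 (SE 0.68) from 45 to 405 min within the 7 libraries. Wdfy3 and Ncoa4, the receptor for ferritin, had 0.27 (SE 0.49) and 0.46 (SE 0.83) in the first comparison and 0.40 (SE 0.60) and -0.29 (SE 0.62) in the second. Of the lysosome genes, Ctsl, which encodes cathepsin L, had 3.39 (SE 1.75) and -0.98 (SE 0.79), Lamp2, a lysosomal membrane protein gene, 2.83 (SE 1.53) and -0.18 (SE 0.83), and Ctsb, which encodes cathepsin B, 2.86 (SE 1.18) and -0.36 (SE 0.66). Wdr45b, a relative of Wipi1, had 2.76 (SE 0.90) at 45 min against control and -0.36 (SE 0.62) from 45 to 135 min. For Tax1bp1, Lamp2, Ctsb and Wdr45b the values between times within the 7 libraries were smaller than their errors, and for Ctsl the interval included 0. Rb1cc1, which encodes the FIP200 subunit of the initiating kinase complex, had 0.49 (SE 0.55) at 405 min against control and -0.38 (SE 0.56) from 45 to 405 min, and Atg2b, a lipid transfer protein gene, -0.12 (SE 0.69) and 0.75 (SE 0.77). Keap1, the partner of p62, had -0.73 (SE 0.71) and 0.99 (SE 0.80) in these comparisons. Nfe2l2, which encodes Nrf2, and Tbk1, the kinase that phosphorylates optineurin and p62, were at 0 in at least 1 library and were tested only within the 7 libraries, where their log2 fold changes from 45 to 405 min were 0.41 (SE 0.72) and -1.09 (SE 0.63). None of these differences passed the same threshold (smallest edgeR quasi-likelihood adjusted p = 0.285).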

How the data were processed

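The kit named in the labels is NuGEN Encore Complete, on total RNA. The study's methods describe poly(A) selection as well, and align reads to mm9 against RefSeq on DNAnexus, while the submitters' processing notes name mm10. The aligner was not given in the sources used here. Each library's deposited table holds, from the authors, estimated counts (raw fragments per gene), rounded here to whole numbers, and deposited FPKM values, used only to compare levels between genes. Columns of scaled fragments were not used. In 45 min replicate 1, 27 symbols turned into dates were restored from the row order.

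Counts entered quasi-likelihood fits in edgeR 4.0.16 under R 4.3.3 (TMM factors; Benjamini-Hochberg adjustment over all tested genes; genes with at least 1 count in every library of the fit), once on all 16 libraries with 12 residual degrees of freedom and once on the 7 libraries with a ribosomal protein share (97 genes) over 4%. The study's methods use edgeR and remove genes with zero counts. The common dispersion was 0.625 and 0.466, a variation of 79.1% and 68.2% between replicates. The scripts were tested on simulated data, where recovery of changed genes was required only at a dispersion well under those found here. That test does not show what these fits could detect. Removed members were tested by exact permutation (pseudocount 1). Alternatives were filterByExpr, no filter, RLE factors, DESeq2 1.42.0 without independent filtering, edgeR's exact test, a replicate block, fits of 2 groups, ribosomal protein share as covariate or limit, and leaving out each library. Gene positions came from GENCODE M1 on NCBIM37 (mm9) and promoters from RefSeq on GRCm38.p6. Deviations of same-numbered libraries correlated at 0.49 to 0.54 in all 4 pairs between 45 and 135 min. Replicates 1 and 2 are the libraries of higher ribosomal protein share at both times, so this check cannot tell pairing by number from shared composition. In each of the other 5 pairs of groups some correlations were under 0.1. They ranged from -0.76 to 0.60 between 45 and 405 min, and the lowest between 135 and 405 min was -0.63. No 2 of 120 library pairs were identical. All members are named. From the lists, genes passing the threshold are named, or else the up to 3 with the highest mean CPM, and the 5 genes most like Sqstm1. The members and lists were chosen with earlier results of these data known.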

Additional observations from a re-analysis of the deposited data

Results flagged for a closer look

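In 40 groups of 4 libraries (10 members, 4 groups), a single library stood apart from the other 3 by Dixon's ratio of gap to range in 5, where chance gives about 2 (1 in 20 groups). In each of the 5 groups the library was at 0, on the log2(CPM + 1) scale, and the nearest other library is given beside it. Map1lc3a had 0 in 135 min replicate 1 (nearest 4.76) and Wipi1 had 0 in 45 min replicate 4 (nearest 5.49). Gabarapl1 had 0 in control replicate 1 (nearest 5.63). Gabarapl2 and Tfeb had 0 in control replicate 4 (nearest 4.82 and 4.98), a library in which Nbr1, Optn, Map1lc3a and Gabarap were also at 0 without passing the limit of the ratio there.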

How the results depend on the processing

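In the fits, leaving out each library in turn called 0 members and 0 genes in every comparison (range 0 to 0). At 405 min against control DESeq2 and edgeR's exact test each called 1 member, Sqstm1, with log2 fold changes of 5.58 (DESeq2 adjusted p = 0.00186) and 5.73 (exact test adjusted p = 0.0464), where the adjusted p ranged from 0.00186 to 0.999 over the 8 alternatives that leave out no library and from 0.145 to 0.795 over the 16 that do. In the other 5 comparisons no alternative called a member. Over all genes DESeq2 called 1, 2 and 217 at 45, 135 and 405 min against control, and 3 for 135 against 45 min and 62 for 405 against 45 min in the 7 libraries of higher ribosomal protein share. The exact test called 12 at 405 min against control and 17 for 405 against 45 min. With filterByExpr 1 gene was called at 405 min, and 4 and 6 for 405 against 135 and against 45 min, and with no filter on low counts 1 at 405 min and 3, 8 and 16 for 135 against 45, 405 against 135 and 405 against 45 min. The cause was not tested. No called result changed sign. With the replicate number as a block, 0 genes and 0 members were called, and the log2 fold change of Sqstm1 was 0.86, 0.89 and 4.43 at 45, 135 and 405 min against control. In the 7 libraries the block leaves 1 residual degree of freedom. Replicate numbers 3 and 4 occur there only at 405 min, so the block terms take up those libraries. The changes to 405 min in this fit therefore rest on 405 min replicate 1 alone at that time. Log2 fold changes from 45 to 135, 135 to 405 and 45 to 405 min were 0.25, 4.38 and 4.64 for Sqstm1. For Gabarapl1 they were -2.28, 5.74 and 3.46. The block changed no call. The permutation of removed members gave 0 p-values under 0.05 with a pseudocount of 0.5 and with CPM over all fragments, and 0 to 2 of 24 with a library left out (2 without control replicate 1, 1 each without control replicate 3 and 45 min replicate 4). In the 9 libraries members rested on 0 to 84 fragments. Among the 7, 135 min replicate 1 also had Map1lc3a and Tfeb at 0 and Gabarapl1 at 1 fragment.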
